A study of Mus musculus with 29 samples.

Results

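The Arp2/3 complex was followed through its 9 subunit genes, Actr2, Actr3, Arpc1a, Arpc1b, Arpc2, Arpc3, Arpc4, Arpc5 and Arpc5l, in RNA-Seq of mouse hematopoietic stem and progenitor cells. The genes were taken by symbol from a table of 30025 genes. All 9 were present, and all 9 reached 1 FPKM (fragments per kilobase of exon, scaled to sequencing depth) in each of 29 libraries and passed the filter that left 15409 genes to test. Arpc3 was chosen by its lower level in HSC that carry the deletion, so its HSC values are given as a description without a test. The other 8 subunits, called partners here, were taken by name because they belong to the complex, and their differences were tested.

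The Arp2/3 complex nucleates a new actin filament on the side of an existing one and so builds branched actin networks. Actr2 and Actr3 encode the actin-related proteins Arp2 and Arp3, which form the start of the daughter filament, and the Arpc subunits hold them together and anchor them to the mother filament. Arpc1a and Arpc1b, and likewise Arpc5 and Arpc5l, encode alternative versions of the same subunit. WASP and WAVE proteins switch the complex on. In blood cells, branched actin is known for its part in migration, adhesion and phagocytosis.

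RNA came from WT mice and from 5A3+/del mice, which carry a heterozygous germ line deletion on chromosome 5 between Fbxl13 and Srpk2 in every cell, both on a C57BL/6J background. WT mice were 12.42 to 13.28 weeks old and 5A3+/del mice 12.42 to 13.85 weeks. Bone marrow cells of the c-kit+ lineage- Sca-1+ (KLS) CD41- CD48- gate were sorted by the surface protein CD150 into CD150hi HSC, CD150lo HSC and CD150neg multipotent progenitors (MPP), the last of which the sample labels also call HSC. There were 5 mice per genotype and 1 library per mouse and population, except that 5A3+/del CD150neg MPP had 4. Libraries were made from amplified cDNA of 10 ng RNA.

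The FPKM rest on 21229490 to 38797570 fragments per library. Mean log2 levels of 9 expressed coding genes from Fbxl13 to Srpk2 lay 0.49 to 1.0 below the WT mean of the same population in the 14 5A3+/del libraries and within 0.14 of it in the 15 WT libraries, so no library went against its genotype label. Slamf1, which encodes CD150, was at 9.97 to 22.6 FPKM in CD150hi, 0.18 to 2.64 in CD150lo and at most 0.296 in CD150neg libraries. WT mouse 3 expressed Xist (234.0 to 319.0 FPKM) and Ddx3y at no more than 0.0687 FPKM, whereas the other 9 mice had Ddx3y at 11.4 FPKM or more. The WT CD150lo library of mouse 5 stood apart from its group in Arpc3. It correlated at 0.971 with the mean of the other WT CD150lo libraries and at 0.978 with that of the 5A3+/del CD150lo libraries, while its genes of the deleted interval lay 0.14 above WT. Of 29 libraries, 11 were at least as close to the mean of the other genotype as to that of their own group. The library itself was left out of the mean of its group. Of these 11, only the 5A3+/del CD150neg libraries of mice 3 (0.962 and 0.968) and 4 (0.966 and 0.978) had gaps of a similar or larger size. Group differences of Arpc3 that rest on the WT CD150lo library of mouse 5 are given with and without it.

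Arpc3 spans chr5:122841887-122856188 on the plus strand (mm9), 99.7 Mb beyond Srpk2 and thus outside the deletion. Its longest coding transcript has 7 exons and 899 bases. Arpc1a (chr5:145844699-145869630) and Arpc1b (chr5:145875084-145891574) are the other subunits on chromosome 5, both 122.7 Mb from Srpk2. Arpc2 (chr1:74283071-74314783), Actr3 (chr1:127289483-127332067) and Arpc5 (chr1:154613672-154622727) lie on chromosome 1, Arpc5l (chr2:38863596-38871397) on chromosome 2, Arpc4 (chr6:113328107-113340442) on chromosome 6 and Actr2 (chr11:19962307-20012916) on chromosome 11. Kpna7 overlaps Arpc1a and Pdap1 overlaps Arpc1b on the opposite strand, and Ttll3 overlaps Arpc4 on the same strand. The libraries do not keep the strand, so reads in these overlaps are uncertain.

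The promoters of Arpc3 and Arpc2 are shown because these subunits differed most in opposite directions between WT populations. RefSeq held a promoter for 8 of the 9 genes in build GRCm38.p6 and none was matched for Arpc5l. Each sequence holds the 250 bases before the start on the plus strand, 5′ to 3′, chr5:122391628-122391877 for Arpc3 and chr1:74236267-74236516 for Arpc2 in that build. Capitals mark matches on either strand to the motifs searched. The ETS core was searched as CCGGAAG. For the GC box the letters were GGGCGG. The CCAAT box was searched by the letters of its name, and for the TATA box TATAAA was used. The YY1 motif was searched as AAGATGG. The NRF1 motif was a pair of GCGC runs with a short gap, and overlapping matches of different motifs were merged.
Arpc3: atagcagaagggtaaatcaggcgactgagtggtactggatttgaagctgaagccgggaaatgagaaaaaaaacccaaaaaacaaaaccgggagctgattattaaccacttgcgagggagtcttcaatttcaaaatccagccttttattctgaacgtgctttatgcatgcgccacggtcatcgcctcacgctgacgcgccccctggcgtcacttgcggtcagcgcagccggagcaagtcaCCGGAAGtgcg
Arpc2: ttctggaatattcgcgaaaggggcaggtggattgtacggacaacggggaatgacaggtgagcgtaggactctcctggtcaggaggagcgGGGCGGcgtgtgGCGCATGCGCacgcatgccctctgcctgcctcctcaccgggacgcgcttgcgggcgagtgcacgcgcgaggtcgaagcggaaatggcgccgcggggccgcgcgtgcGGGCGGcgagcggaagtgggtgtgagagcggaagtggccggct
The Arpc3 window held 1 kind of match, the ETS core, which 6.91% of 32851 promoter windows of this length contain and which was found in 5 of the 8 subunit windows (Arpc1a, Arpc3, Arpc4, Actr2 and Actr3). The Arpc2 window held GC boxes, as did 32.7% of all windows, and an NRF1 motif, as did 4.98%. Neither window held a CCAAT box, a YY1 motif or a TATA box, which 33.8%, 4.49% and 12.4% of all windows contain. Arpc3 had a GC content of 51.2% and 17 CpG, and Arpc2 68.4% and 33 CpG, beside medians of 52.4% and 6 over all windows. These matches are a description of the letters in the windows.

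Levels are given as normalized FPKM, the values after quantile normalization over all libraries, in which exon length is the combined length of all annotated exons of a gene. Arpc2 was the most abundant subunit with a mean of 197 normalized FPKM over 29 libraries, followed by Actr3 with 94.0, Arpc5 with 64.3, Actr2 with 35.2, Arpc1b with 33.7, Arpc3 with 24.9, Arpc4 with 24.6, Arpc1a with 15.7 and Arpc5l with 8.03. This order depends on the length used. Arpc3 has 2581 bases of annotated exon, and scaled to its 899-base transcript its mean was 71.5, the fourth of the 9 subunits, while Arpc2 remained first at 245. Of the paired versions, Arpc1b made up 68.1% ± 5.04 (SD, n = 29) of Arpc1a plus Arpc1b, and Arpc5l 11.1% ± 1.8 (SD, n = 29) of Arpc5 plus Arpc5l. The share of Arpc5l also depends on the length. Scaled to the longest coding transcripts, the means were 26.6 for Arpc5l and 76.5 for Arpc5, a larger share of Arpc5l. For Arpc1b and Arpc1a they were 55.4 and 24.8. Between 670 and 13416 fragments lay behind each value of a partner and 1024 to 3581 behind each value of Arpc3.

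**Figure D1:**
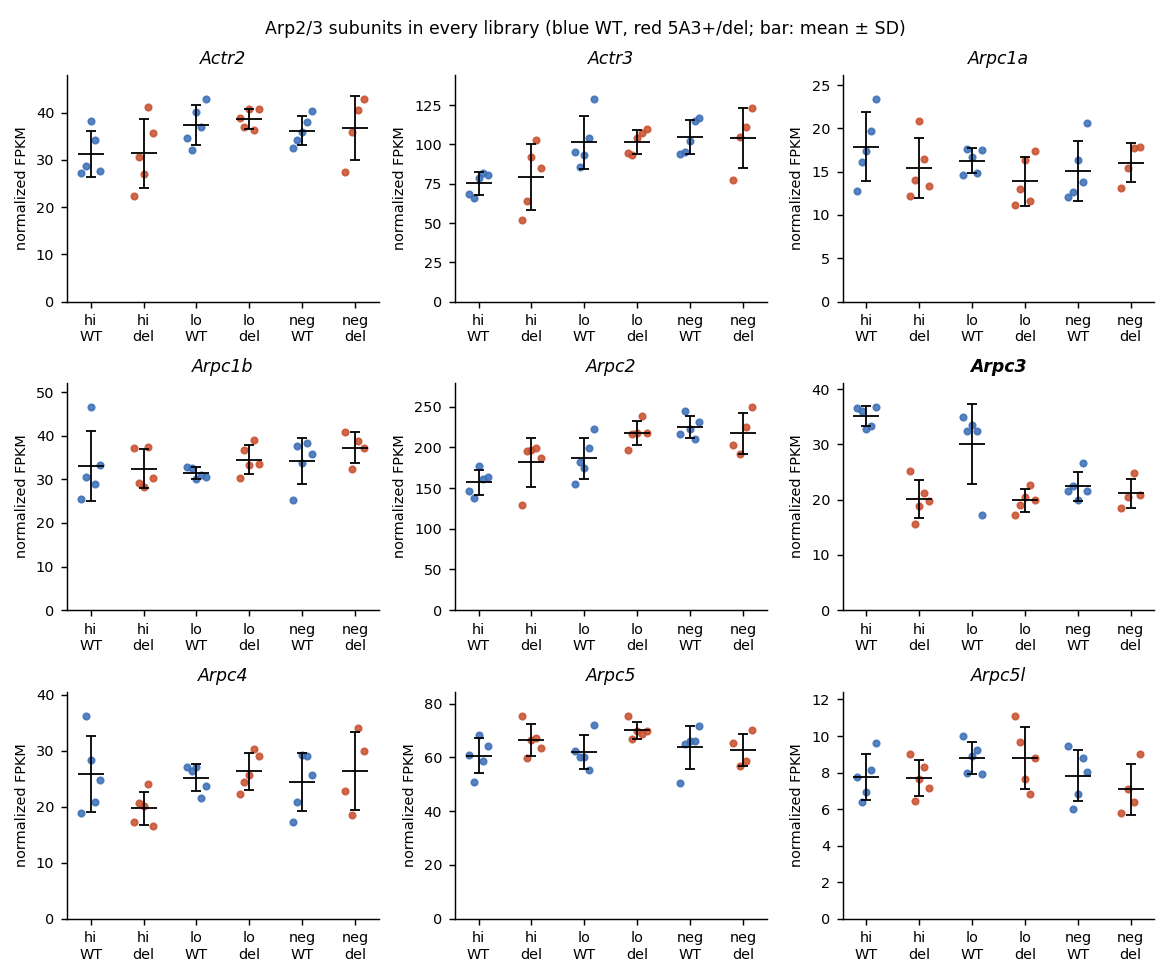
Normalized FPKM of the 9 Arp2/3 subunits in each of 29 libraries (points), by population (CD150hi HSC, CD150lo HSC, CD150neg MPP) and genotype (WT blue, 5A3+/del red), with mean and SD in black and each vertical axis starting at 0. Arpc3 stands at 32.8 to 36.7 in WT CD150hi HSC and at 15.6 to 25.1 in 5A3+/del CD150hi HSC, and no partner shows groups of mice that separate by genotype.

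Arpc3 encodes a small subunit that links Arp3 to the rest of the complex. In WT CD150hi HSC its level was 36.6, 36.0, 32.8, 33.4 and 36.7 normalized FPKM in mice 1 to 5. In 5A3+/del CD150hi HSC it was 25.1, 15.6, 18.9, 21.2 and 19.8. Every 5A3+/del library was below every WT library, and the mean of 20.1 ± 3.46 (SD, n = 5) was 57.4% of the WT mean of 35.1 ± 1.87 (SD, n = 5). The log2 difference was -0.79 ± 0.15 (SE). Arpc3 was chosen for this difference, and for orientation the genotypes did not overlap for 2.58% of all genes tested in this population. In bulk RNA, fewer cells that express a gene and less of its RNA per cell cannot be told apart.

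The WT CD150lo HSC libraries had 35.0, 32.4, 33.5, 32.4 and 17.3 normalized FPKM of Arpc3 in mice 1 to 5. The 5A3+/del CD150lo HSC libraries had 17.2, 19.0, 20.5, 22.7 and 19.9. WT mice 1 to 4 were all above the 5A3+/del range, and WT mouse 5 was at its lower end, so the groups overlapped through 1 library. The 5A3+/del mean of 19.8 ± 2.0 (SD, n = 5) was 65.9% of the WT mean of 30.1 ± 7.25 (SD, n = 5), a log2 difference of -0.54 ± 0.15 (SE). Without WT mouse 5 the WT mean was 33.3 ± 1.23 (SD, n = 4) and the log2 difference -0.73 ± 0.12 (SE), the same direction and a larger size.

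In CD150neg MPP, which were not used to choose the gene, the WT libraries had 21.5, 22.4, 19.9, 26.7 and 21.5 normalized FPKM and the 5A3+/del libraries 18.5, 20.4, 24.8 and 20.9. The genotypes overlapped over most of their range. The log2 difference was -0.08 ± 0.16 (SE), with a 95% confidence interval from -0.41 to 0.24 and an adjusted p of 1.0 in limma, in a comparison in which 0.0454% of genes passed. Whether the genotype difference of Arpc3 differed between HSC and MPP was not tested, since the HSC side was chosen for its size.

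Ordered by group mean, Arpc3 was at 35.1 in WT CD150hi HSC, 30.1 in WT CD150lo HSC, 22.4 in WT CD150neg MPP, 21.2 in 5A3+/del CD150neg MPP, 20.1 in 5A3+/del CD150hi HSC and 19.8 in 5A3+/del CD150lo HSC. Libraries of each pair of neighbours in this order overlapped, for WT CD150lo HSC and WT CD150neg MPP only through WT mouse 5. In WT mice Arpc3 was thus higher in CD150hi HSC than in MPP in every library, by 0.63 ± 0.15 (SE) on the log2 scale, and CD150lo HSC were 0.38 ± 0.15 above MPP (0.55 ± 0.13 without mouse 5). In 5A3+/del mice the corresponding log2 differences were -0.08 ± 0.16 and -0.09 ± 0.16, so the 3 populations of 5A3+/del mice stood near the level of WT MPP. WT CD150hi HSC lay above WT CD150lo HSC by 0.25 ± 0.15 (SE), but by 0.06 ± 0.13 without WT mouse 5. That step in the order therefore rests largely on this mouse, without which the WT CD150lo mean was 33.3. These population values are descriptions of a gene chosen for its pattern, and the comparisons share libraries.

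Transcripts of granulocytes and monocytes reached higher levels in some WT than in any 5A3+/del CD150hi HSC libraries. The summed FPKM of S100a8, S100a9, Elane, Mpo, Lyz2 and Ngp, of which all 6 reached 1 FPKM in some library, was 264 to 1030 in WT and 199 to 300 in 5A3+/del libraries, with S100a8 at 16.8 to 478.0 and 0.0 to 62.5. Lyz2, of the same list, was at 162 to 207 in WT and 183 to 215 in 5A3+/del libraries. The summed level was 177 to 1580 in WT and 205 to 569 in 5A3+/del CD150lo HSC, and 207 to 269 and 178 to 480 in CD150neg MPP. Within WT CD150lo HSC, the library with 177 had 33.5 normalized FPKM of Arpc3, the library with 1580 had 35.0, and mouse 5, with 372, had 17.3. In CD150hi HSC, Elane was listed at 0 in 1 library of each genotype, and Mpo and S100a8 in 1 5A3+/del library each. Like the granulocyte and monocyte sum, the other marker sums overlapped between genotypes in each population. The 4 B cell genes gave 6.02 to 31.8 FPKM, mostly from Cd79b, with Ms4a1 listed at 0 in 26 of 29 libraries, and 4 T cell genes gave 0.285 to 4.92. The 5 erythroid genes gave 5.45 to 28.9 and the 5 megakaryocyte genes 22.7 to 58.5. The 9 genes of the HSC and MPP gate gave 530.0 to 970.0, and 1 of them, Itga2b, is also a megakaryocyte gene. The part of these transcripts in the Arpc3 difference was not tested.

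The partners were compared between genotypes next. None of the 8 passed the threshold of 0.05 on the adjusted p of limma in CD150hi HSC, where 0.156% of all genes passed, in CD150lo HSC, where 0.0324% passed, or in CD150neg MPP. At an unadjusted p under 0.05 the count was also 0 of 8 in each population, beside 13.1%, 6.87% and 4.27% of all genes. Their median log2 difference was 0.0 for CD150hi HSC, 0.06 for CD150lo HSC and -0.01 for MPP, beside medians of 0.004, 0.011 and -0.001 over all genes. No partner had groups of libraries that separated by genotype in any population, beside 2.58%, 1.63% and 1.51% of all genes.

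Actr2 and Actr3, the actin-related subunits that template the new filament, had overlapping levels in both genotypes. Actr2 ranged from 27.3 to 38.3 normalized FPKM in WT and from 22.4 to 41.2 in 5A3+/del CD150hi HSC, with a log2 difference of -0.01 (95% confidence interval -0.3 to 0.28). In CD150lo HSC it differed by 0.06 (-0.23 to 0.35). For Actr3 the difference was 0.04 (-0.28 to 0.36) in CD150hi HSC and 0.02 (-0.3 to 0.33) in CD150lo HSC.

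Arpc2, which with Arpc4 forms the core that contacts the mother filament, was measured at 146, 138, 177, 161 and 164 normalized FPKM in WT and 129, 195, 197, 199 and 187 in 5A3+/del CD150hi HSC. In these normalized values the 5A3+/del libraries of mice 2 to 5 were above every WT library and mouse 1 was below all of them. In the deposited FPKM, 5A3+/del mice 4 and 5 stood at 175 and 176, below WT mouse 5 at 180. The difference of 0.19 ± 0.12 (SE) had an adjusted p of 0.513. In CD150lo HSC the difference was 0.23 ± 0.12 (SE; adjusted p = 0.78 in limma), and in MPP it was -0.05 ± 0.13. With the deposited FPKM the HSC differences were 0.06 and 0.12, and with median scaling 0.08 and 0.10, none of which passed the test.

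Arpc4 was at 18.9, 36.2, 28.3, 20.9 and 24.7 normalized FPKM in WT and 17.2, 20.7, 20.1, 24.0 and 16.6 in 5A3+/del CD150hi HSC. The groups overlapped, and the log2 difference of -0.35 ± 0.17 (SE) had an adjusted p of 0.397 in limma. Without WT mouse 2 it was -0.22, beside -0.23 for Arpc1a. In CD150lo HSC the difference was 0.06 ± 0.17 and in MPP 0.09 ± 0.18.

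Arpc1a and Arpc1b encode versions of the WD-repeat subunit that meets the WASP and WAVE proteins. Arpc1a differed by -0.2 ± 0.17 (SE) in CD150hi and -0.23 ± 0.17 in CD150lo HSC, with adjusted p of 0.645 and 0.902 in limma. Arpc1b differed by 0.13 ± 0.14 in CD150lo HSC, and in CD150hi HSC its mean was 33.0 in WT and 32.4 in 5A3+/del mice. The share of Arpc1b in the pair was 65.9% ± 2.39 (SD, n = 5) in WT and 71.4% ± 4.85 (SD, n = 5) in 5A3+/del CD150lo HSC, with overlapping libraries.

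Arpc5 and Arpc5l encode versions of the smallest subunit. Arpc5 differed by 0.13 ± 0.11 (SE) in CD150hi and 0.18 ± 0.11 in CD150lo HSC (adjusted p = 0.637 and 0.838 in limma). For Arpc5l the differences were -0.01 ± 0.14 in both HSC populations and -0.13 ± 0.15 in MPP. The share of Arpc5l in the pair, by the combined exon length, lay between 8.16% and 15.8% in all libraries.

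**Figure D2:**
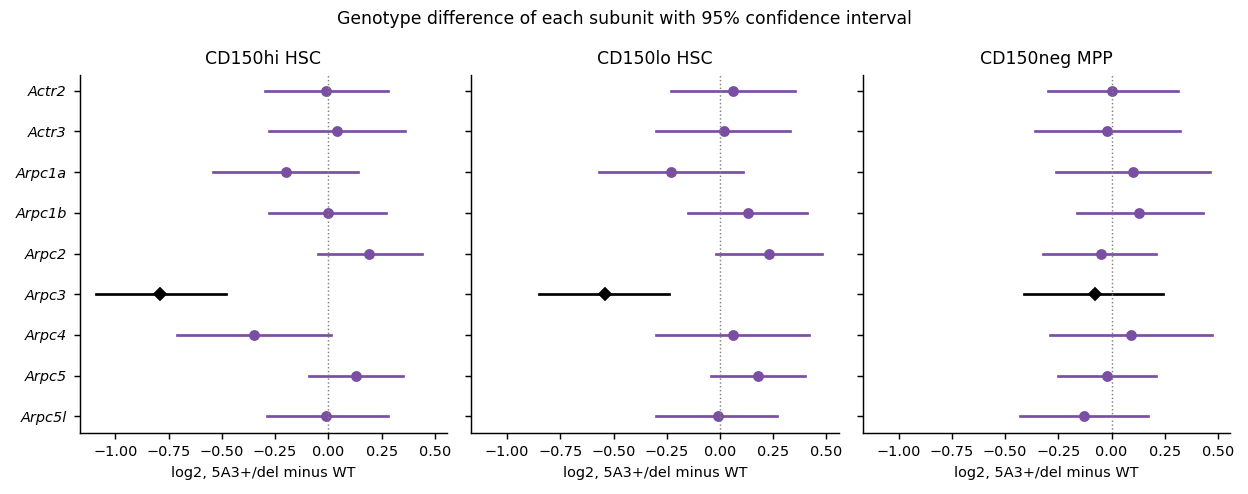
Log2 difference, 5A3+/del minus WT, of each subunit in CD150hi HSC, CD150lo HSC and CD150neg MPP with its 95% confidence interval from limma. The diamond marks Arpc3, which was chosen by its HSC values, at -0.79, -0.54 and -0.08, where its HSC intervals show the spread and are no test, and the intervals of all 8 partners include 0 in each population.

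Arpc3 was then set against its partners within each library, as log2 Arpc3 minus the mean log2 of the 8 partners. The value was 0.23, 0.09, -0.28, -0.11 and -0.06 in WT CD150hi HSC and -0.3, -1.03, -0.92, -0.92 and -0.76 in 5A3+/del CD150hi HSC. The highest 5A3+/del library, mouse 1, lay just below the lowest WT library. The group means of -0.03 ± 0.19 (SD, n = 5) and -0.79 ± 0.29 (SD, n = 5) differed by -0.76, while the partner mean itself differed by -0.03. By the combined exon length, Arpc3 thus made up 7.97% ± 0.99 (SD, n = 5) of the summed normalized FPKM of all 9 subunits in WT and 4.52% ± 1.21 (SD, n = 5) in 5A3+/del CD150hi HSC. These shares, and how near the WT value relative to the partners lies to 0, depend on the length used. The sum of all 9 was 444 ± 38.1 and 454 ± 51.8 (SD, n = 5 each).

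In CD150lo HSC the value was -0.12, -0.21, -0.21, -0.22 and -1.24 in WT and -1.12, -1.03, -0.96, -0.8 and -1.07 in 5A3+/del libraries. The WT mouse 5 library had the lowest value of all 29. The means differed by -0.6 with this library, and the other 4 WT libraries had a mean of -0.19 ± 0.05 (SD, n = 4). The CD150neg MPP libraries were not used for the choice, although they came from the same mice. There the means were -0.78 ± 0.18 (SD, n = 5) in WT and -0.88 ± 0.15 (SD, n = 4) in 5A3+/del mice. The difference of -0.09 gave p = 0.397 in a two-sided exact permutation test, in which 0.0159 was the smallest p possible.

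**Figure D3:**
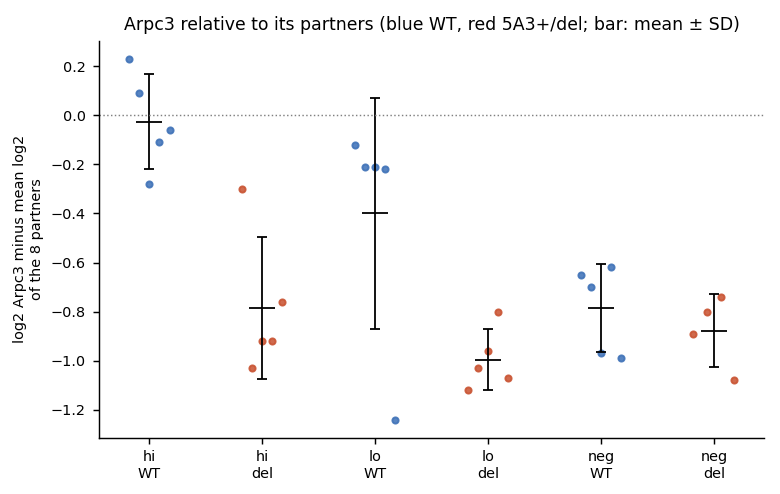
Log2 Arpc3 minus the mean log2 of its 8 partners in each library (points), by population and genotype (WT blue, 5A3+/del red), with mean and SD in black. WT CD150hi HSC lie between -0.28 and 0.23, 4 of 5 WT CD150lo HSC between -0.22 and -0.12, and every other library, WT CD150lo mouse 5 included, at -0.3 or below.

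Between WT CD150hi HSC and MPP, 1 partner passed in the main fit and 2 passed in a fit with the mouse as a block. Arpc2 was at 146, 138, 177, 161 and 164 normalized FPKM in WT CD150hi HSC and at 216, 245, 222, 210 and 231 in WT CD150neg MPP. Every HSC library was below every MPP library, and the log2 difference was -0.52 ± 0.12 (SE; adjusted p = 0.00492 in limma), in a comparison in which 10.0% of all genes passed. Without WT mouse 2 the difference was -0.44 and the adjusted p 0.0529. A 548-base stretch of chromosome 17 matches the Arpc2 transcript at 95.6% identity, so some of its reads could belong to either place. The direction is opposite to that of Arpc3 in the same libraries.

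Actr3 was at 68.4, 66.1, 78.8, 81.7 and 80.8 normalized FPKM in WT CD150hi HSC and at 94.2, 95.3, 102, 115 and 117 in WT MPP. These groups did not overlap either. The difference of -0.47 ± 0.16 (SE) had an adjusted p of 0.0523, and with the mouse as a block, since the populations came from the same mice, Actr3 passed at an adjusted p of 0.00772, beside 1646 of 15409 genes called in that fit. In the blocked fit Actr3 was also lower in WT CD150hi than CD150lo HSC (-0.42, adjusted p = 0.0352, against 0.177 unblocked), a comparison in which 627 genes passed blocked and 3.53% of genes unblocked. In 5A3+/del mice Actr3 was lower in CD150hi HSC than in MPP (-0.44 blocked, adjusted p = 0.0276, against 0.168 unblocked) and than in CD150lo HSC (-0.39, 0.0497 against 0.222), where 1036 and 602 genes passed blocked and 6.16% and 3.18% unblocked. The Actr3 transcript has a near-identical copy on chromosome X, Gm8822, with 98.7% identity over 2477 bases, and a 240-base match at 100.0% identity on chromosome 8 in Cbfa2t3, which was at 41.2 to 82.7 FPKM. Shorter stretches of 200 bases or more at 95% identity or above were found for Arpc1b (on chromosome X, Gm5637), Arpc5 and Actr2, and none for Arpc3, Arpc1a, Arpc4 and Arpc5l. Gm8822 itself was listed at 0.672 to 2.5 FPKM, and reads of the copy and of Actr3 are uncertain.

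The other 6 partners did not pass in any population comparison. In 5A3+/del mice none of the 8 passed unblocked, and between CD150lo HSC and MPP none passed in either genotype, blocked or not, where 0.188% of genes passed in WT and 0.0389% in 5A3+/del mice. At an unadjusted p under 0.05, 2 of 8 partners were counted in WT CD150hi HSC against MPP (beside 21.8% of all genes), 1 against CD150lo HSC (14.1%) and 1 between WT CD150lo HSC and MPP (8.75%). In 5A3+/del mice the counts were 2 (16.9%), 4 (13.3%) and 0 (4.95%) in the same order. The 4 between 5A3+/del CD150hi and CD150lo HSC were Arpc2 (-0.28), Arpc4 (-0.4), Actr2 (-0.32) and Actr3 (-0.39), with the lowest unblocked adjusted p at 0.222 in limma. In WT mice the same differences were -0.24, 0.0, -0.25 and -0.42. The log2 difference of Actr2 between CD150hi HSC and MPP was -0.22 in WT mice (adjusted p = 0.404 in limma) and -0.23 in 5A3+/del mice (adjusted p = 0.486). The summed level of all 9 subunits was 444 for CD150hi HSC, 499 for CD150lo HSC and 533 for MPP of WT mice, and 454, 531 and 529 in 5A3+/del mice.

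**Figure D4:**
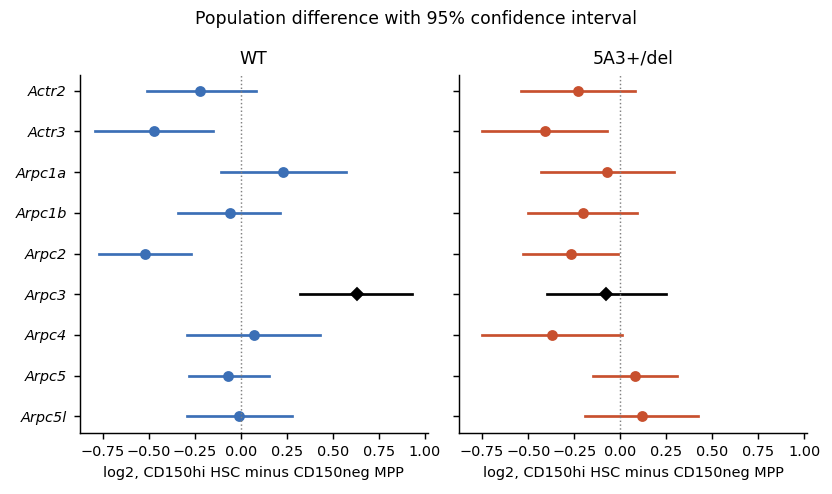
Log2 difference, CD150hi HSC minus CD150neg MPP, of each subunit in WT and in 5A3+/del mice with its 95% confidence interval from limma. In WT mice Arpc3 (diamond) lies at 0.63 and Arpc2 and Actr3 at -0.52 and -0.47, and in 5A3+/del mice Arpc3 lies at -0.08.

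Across the 29 libraries the partners were only loosely related to each other. The correlation of log2 values had a median of 0.2 over the 28 pairs of partners, with a range from -0.26 to 0.83, and a median of -0.14 over the 8 pairs with Arpc3. Arpc3 correlated at -0.63 with Arpc2, -0.41 with Arpc5, -0.3 with Actr3, -0.24 with Actr2, -0.05 with Arpc1b, 0.15 with Arpc5l, 0.23 with Arpc4 and 0.25 with Arpc1a. The points share mice, groups and normalization, and the correlations are descriptions.

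The genes whose pattern was most like that of Arpc3 were Atp5e, which encodes the epsilon subunit of ATP synthase, and Rps13-ps1, Rpl7a-ps5, Gm9385 and Gm6252, with r from 0.88 to 0.89 over 29 libraries. Rps13-ps1 and Rpl7a-ps5 are named as pseudogenes of ribosomal proteins but annotated as protein-coding, Gm9385 and Gm6252 are annotated as pseudogenes, and such genes can share reads with near-identical copies. Atp5e differed by genotype by -0.75 for CD150hi HSC, -0.48 for CD150lo HSC and -0.07 for MPP on the log2 scale, and Rps13-ps1 by -0.47 and -0.42 in the HSC populations. Because some of these names point to ribosomal protein genes, 77 coding genes of the cytosolic ribosome were summarized after these values had been seen. The mean log2 level of the 77 genes was 8.29 ± 0.03 (SD, n = 5) in WT and 8.11 ± 0.05 (SD, n = 5) in 5A3+/del CD150hi HSC. It was 8.26, 8.24, 8.17, 8.29 and 8.06 in WT CD150lo mice 1 to 5, lowest in mouse 5, and 8.06 ± 0.01 (SD, n = 5) in 5A3+/del CD150lo HSC. Their median genotype difference was -0.18 for CD150hi HSC, -0.15 for CD150lo HSC and -0.03 for MPP, smaller than that of Arpc3. Arpc3 correlated with this mean at 0.83 over all libraries and at 0.54 after the group means were removed, and the partners at -0.64 to 0.37 over all libraries. The WT CD150lo library of mouse 5 was lowest of its group in both quantities. The value of 0.54 therefore rests in large part on this 1 library, and it was not recomputed without it.

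**Figure D5:**
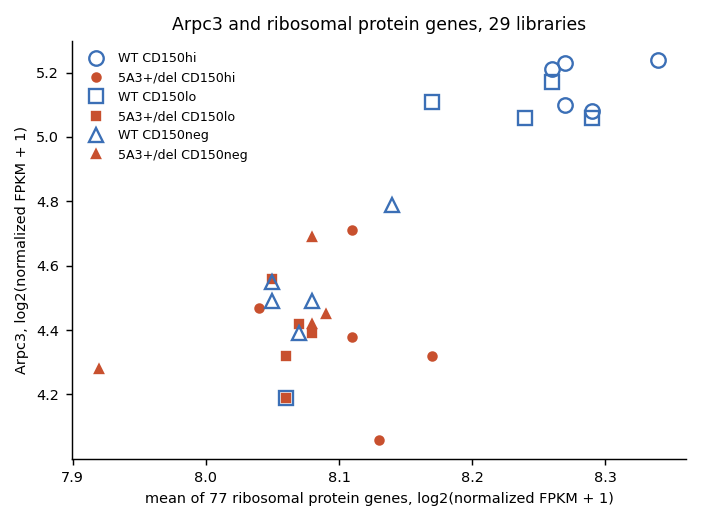
Log2 level of Arpc3 against the mean log2 level of 77 ribosomal protein genes in 29 libraries, with genotype by colour and population by symbol. WT libraries are open symbols and 5A3+/del filled ones. WT CD150hi HSC lie at the upper right, and the WT CD150lo library of mouse 5, at 8.06 and 4.19, lies on a 5A3+/del CD150lo library.

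Genotype differences were also summarized by transcript length. Among tested coding genes, the 2433 with the shortest transcripts (up to 1507 bases, as is that of Arpc3) had a median log2 difference of -0.09 for CD150hi HSC, -0.07 for CD150lo HSC and 0.01 for MPP. The 2430 with the longest (4624 bases or more) had medians of 0.04, 0.04 and -0.03.

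The neighbours of Arpc3 were examined to see whether its chromosomal surroundings moved with it. Of the 5 tested genes on each side, Gpn3 (9.0 kb before Arpc3), 1500011H22Rik, Vps29, Rad9b and Pptc7 lie before it and Anapc7 (15.5 kb after it), Gm15846, Atp2a2, Ift81 and P2rx7 after it. None of the 10 passed the test by genotype in any population, and the lowest adjusted p was 0.368 in limma. At an unadjusted p under 0.05, 1 was counted for CD150hi HSC, 1 for CD150lo HSC and 0 for MPP, beside 13.1%, 6.87% and 4.27% of all genes. Gpn3 differed by -0.21 ± 0.13 (SE) and Anapc7 by 0.05 ± 0.16 in CD150hi HSC. Log2 differences of the 10 ranged from -0.37 to 0.44 in CD150hi HSC and from -0.19 to 0.54 in CD150lo HSC.

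Among 60 tested genes that regulate the complex or handle actin, 0 were called by genotype in each of the 3 populations in limma. At an unadjusted p under 0.05, 15 of 60 were counted for CD150hi HSC and 10 of 60 for CD150lo HSC. Both shares were above those over all genes, 13.1% and 6.87%. For MPP, 3 of 60 were counted, beside 4.27% of all genes. Their median log2 difference was 0.04 for CD150hi HSC, 0.06 for CD150lo HSC and 0.0 for MPP. Of 8 nucleation-promoting factors, 6 had positive differences in CD150hi HSC, among them Was (0.38, adjusted p = 0.204 in limma), Wasf2 (0.22) and Hcls1 (0.55, adjusted p = 0.204). Of 12 genes of the WAVE complex and of WASP partners, 9 were positive there, and the most abundant, 6720456B07Rik (an older symbol of Brk1), Nckap1l and Cyfip2, differed by 0.02, 0.07 and 0.07. Of 8 inhibitors and debranching factors, 3 were positive, with Coro1a at -0.22, Coro1b at 0.12 and Coro2a at -0.36. Of 14 genes for actin and its monomer-binding, capping and severing proteins, 6 were positive, with Actb at 0.28, Pfn1 at 0.36 and Tmsb4x at -0.05. Of 9 formins and other nucleators, which build unbranched filaments, 5 were positive, with Fmnl1 at 0.11, Diap1 at -0.06 and Inf2 at -0.11. Actr3b, a version of Actr3, had a mean of 0.67 normalized FPKM and differed by 0.34 (adjusted p = 0.649).

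The same 60 genes were also compared between populations. In WT CD150hi HSC against MPP, 4 were higher and 10 lower, beside 10.0% of all genes called. The higher genes, named after their values were seen, were Nckap1 (1.76), Cttn (0.94), 2610034B18Rik (an older symbol of Arpin, 0.85) and Diap1 (0.58). The lower genes, also named after their values were seen, included Tmsb10 (-1.29), Gmfg (-1.21), Actb (-0.61), Wasf2 (-0.33), Nckap1l (-0.39) and Cyfip2 (-0.37). Their median log2 difference was -0.16 in WT mice and -0.08 in 5A3+/del mice, in which 5 were higher and 8 lower beside 6.16% of all genes called. In WT CD150hi against CD150lo HSC 3 were higher and 2 lower (3.53% of all genes called), and between WT CD150lo HSC and MPP 1 was lower (0.188%). Actin genes have many processed copies in the genome, so reads of Actb are uncertain.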

How the data were processed

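RNA-Seq was performed by the authors on HSC (CD150hi and CD150lo) and CD150neg MPP (10 ng total RNA, amplified cDNA without strand information, paired-end reads). Per the processing notes, Bowtie version 0.12.2, HTSeq and build mm9 were used. The authors deposited 1 table of FPKM, fragments per kilobase of exon scaled to depth, for 30025 genes in 29 libraries. The study's methods describe another measure, the coverage of the best covered coding exon, which was not used here. Fragments per library were recovered from the steps of low FPKM with exon lengths of the mm9 GENCODE annotation, which 98.4% to 98.91% of low values (under 0.05 fragments off) followed as whole fragments, and they limit counting error only.

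Genes of at least 1 FPKM in at least 4 libraries (15409) were transformed as log2(FPKM + 1), quantile normalized and fitted with limma version 3.58.1 (R version 4.3.3) on 6 group means, two-sided, with Benjamini-Hochberg adjustment over all genes and a threshold of 0.05. Fold changes are therefore on the log2(FPKM + 1) scale and understate changes of low genes. The exact permutation test used scipy version 1.17.1. Copies of subunit transcripts were sought in mm9 with blastn version 2.17.0 (95% identity over 200 bases). Groups came from the sample labels. A mouse code ties the populations to 1 mouse, while equal replicate numbers of WT and 5A3+/del mice mark different mice. Deviations from the group means correlated at -0.04 to 0.23 between libraries of the same mouse (28 pairs) and at -0.03 to 0.08 between libraries that share only the number (14 pairs). The steps were tested on simulated data.

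The subunits, lists and tests were chosen with earlier results of these data known. Named genes are the 9 subunits, the 5 genes most correlated with Arpc3, its 5 tested neighbours on each side and, per actin list, genes called by genotype or otherwise the 3 most abundant. Further genes of the actin lists were named after their values had been seen. The members of 1 of the actin lists are counted in the total of 60 genes and are not reported here.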

Additional observations from a re-analysis of the deposited data

Results flagged for a closer look

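Among 60 sets of 4 or 5 libraries (9 subunits and the value of Arpc3 relative to its partners, in 6 groups), 3 held a library whose gap to the nearest of the others took up most of the range of its group. About 1 in 20 sets does so by chance, which would be 3.0 of 60. Arpc3 was at 17.3 normalized FPKM in WT CD150lo HSC of mouse 5, against 32.4 to 35.0 in the other 4 mice. The log2 value of Arpc3 minus the partner mean in that mouse was -1.24, with the other mice between -0.22 and -0.12. The depth of the library lay within the range of its group, and mouse 5 had 36.7 normalized FPKM of Arpc3 in CD150hi HSC and 21.5 in MPP. Arpc2 was at 129 normalized FPKM in 5A3+/del CD150hi HSC of mouse 1, against 187 to 199 in the other 4 mice. This library correlated at 0.9 with the mean of its group, the lowest of all 29 libraries. It also had the highest Arpc3 of its group, 25.1, and its summed B cell marker level of 31.8 FPKM was the highest of all libraries.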

How the results depend on the processing

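The 9 comparisons were recomputed under 11 alternative settings, 1 of them, the mouse as a random effect, added after the data had been seen, and without each of 10 mice in turn. The setting called replicate block used the mouse for comparisons between populations. For those between genotypes it used the replicate number, which joins different mice and is an arbitrary block there. The count of partners called by genotype stayed at 0 of 8 in all 3 populations under all of them. The Arpc3 difference ranged from -0.81 to -0.76 across settings and from -0.87 to -0.70 without a mouse in CD150hi HSC, from -0.56 to -0.54 and from -0.73 to -0.48 in CD150lo HSC, and from -0.12 to -0.07 and from -0.16 to -0.02 in MPP. Relative to the partners it was -0.88 to -0.70, -0.81 to -0.53 and -0.15 to -0.03 without a mouse. In WT CD150hi HSC against MPP, 2 partners in place of 1 were called with the filter of 10 FPKM in 1 library, the deposited FPKM, the variance trend, only the 2 groups, the replicate block, the age covariate and the random effect, and 0 to 2 without a mouse. The gene that entered was Actr3, and Arpc2 left only without WT mouse 2. With the replicate block, 1 partner was called in WT CD150hi against CD150lo HSC, 1 in 5A3+/del CD150hi HSC against MPP (1 also with the deposited FPKM) and 1 against CD150lo HSC, Actr3 each time. The block changed no other call of a partner. Of 1638 values of single subunits, 1624 had no change of call, 13 passed only in the alternative and 1 only in the original fit. All that changed were values of Actr3 or Arpc2. The sign of values near 0 that were not called could differ. The 1638 include values of Arpc3 that were not tested and so had no side of the threshold. Counts over all genes moved more: 24 genes by genotype in CD150hi HSC became 0 with only the 2 groups fitted and 100 with the variance trend (4 without WT mouse 4), 5 in CD150lo HSC became 0 and 77 (without WT mouse 5), 7 in MPP became 0, and 29 in WT CD150lo HSC against MPP became 1 with the block, 0 without WT mouse 1, 2 or 4 or 5A3+/del mouse 3, and 72 without WT mouse 5. In 5A3+/del CD150lo HSC against MPP 6 became 0 under several settings. Fitting only the 2 groups gave 1022 in place of 1548 and 291 in place of 544 for WT CD150hi HSC against MPP and CD150lo HSC, and 449 in place of 949 in 5A3+/del CD150hi HSC against MPP, while the filter of 10 FPKM gave 292 in place of 490 against CD150lo HSC. The cause was not tested. The value relative to the partners was recomputed only under settings that alter values per library. With 4 or 5 mice a group, partner differences within the intervals given are not excluded. The intervals are no limit of detection, since the adjusted test can also miss differences that lie outside them.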
